A study of Bos taurus with 47 samples.

Results

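GHR, the growth hormone receptor gene, and IGF1, the gene of insulin-like growth factor 1, were followed through 15 tissue labels of Holstein cattle. The genes were chosen by identifier, ENSBTAG00000001335 for GHR and ENSBTAG00000011082 for IGF1, and are 2 of 24616 genes in the deposited table. Neither that table nor the RefSeq gene list used here pairs these identifiers with symbols, so the names are those under which the identifiers were selected. RNA was sequenced in 47 libraries. Liver, kidney, spleen, ileum, rumen, muscle, heart, adipose tissue, lung and frontal cortex had 4 libraries each, from 2 males, called male A and male B here, and 2 females. One female gave the lactating mammary gland and is called the lactating cow, and the other gave the dry mammary gland and is called the dry cow. Ovary and uterus came from these 2 cows, and lymphocytes came from a further male. All animals are Holsteins with no treatment named. Age, parity, days of lactation and stage of the oestrous cycle are not given in the sources used here.

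GHR is a cytokine-type receptor at the cell surface. When growth hormone from the pituitary binds it, the kinase JAK2 and the transcription factors of the STAT5 family are activated. IGF1 is a secreted growth factor and a main target of that signal. The liver supplies most of the IGF1 in blood, where it restrains further growth hormone release, while many other tissues make IGF1 that acts locally. In dairy cows, growth hormone supports milk production, and liver GHR and blood IGF1 are known to be low around the start of lactation. The bovine GHR gene is transcribed from several promoters, of which one is used mainly in adult liver. The values here are sums per gene and do not separate these transcripts.

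Levels are the authors' deposited FPKM, fragment counts divided by transcript length and by library size. Levels of the 2 genes are set side by side on that scale, though the transcript lengths used are not given. FPKM summed to between 576130 and 964931 per library, and the depth in fragments is unknown. The steps between low values gave relative depths from 0.824 to 1.51, and no counting interval was computed. Each of the 44 libraries with a partner of its label correlated best with a library of that label. Tissue markers could not be looked up without gene symbols, so labels were not checked against them. Most libraries held traces of genes restricted to liver, at 61.0 to 1340 ppm (parts in 1000000) of their liver level in 33 libraries outside liver. In the other 10, 9 of them from the lactating cow, the traces stood at 0 to 33.3 ppm. For GHR, a liver trace of this size came to under 1% of the value in 42 of the 43 libraries outside liver, and to 5.87% in the rumen of the lactating cow. For IGF1 it reached 1% in 5 of the 43 libraries, with the highest share, 3.85%, in the muscle of male A.

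GHR was most abundant in liver. It stood at 67.1 and 91.4 FPKM in the livers of males A and B, at 55.2 FPKM in that of the lactating cow and at 83.6 FPKM in that of the dry cow, a mean of 74.3 ± 16.3 FPKM (SD, n = 4). All 43 libraries outside liver lay below the lowest liver library. Such a separation was found for 2.59% of the 16634 genes tested. On the log2(FPKM + 1) scale, which understates the change of genes with low values, GHR averaged 6.21 in liver and 2.89 over the other 14 labels. The difference was 3.32 ± 0.24 (SE), with an adjusted p of 7.26e-15 by limma with Benjamini-Hochberg adjustment over all genes. Genes were called at an adjusted p under 0.05 and a difference of at least 1, or 2-fold, and 8.28% of all genes were called higher in liver. In bulk tissue, fewer cells of a type and less RNA per cell cannot be told apart.

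Adipose tissue, kidney and muscle formed the next tier of GHR. In adipose tissue GHR stood at 34.9 and 43.7 FPKM in males A and B, 26.3 in the lactating cow and 34.4 in the dry cow. In kidney the 4 libraries lay close together, between 25.2 and 31.6 FPKM, with a mean of 27.5 ± 2.82 (SD, n = 4). In muscle 3 libraries stood at 20.6, 20.9 and 21.3 FPKM and that of the lactating cow at 32.8. The ranges of adipose tissue, kidney and muscle overlap. Against the mean of the other labels GHR was called higher in adipose tissue (2.18 ± 0.24 on the log2 scale, SE), kidney (1.84 ± 0.24) and muscle (1.61 ± 0.24), with limma adjusted p of 9.44e-10, 1.90e-08 and 1.57e-07. Of all genes, 9.99% were called higher in adipose tissue, 16.1% in kidney and 5.66% in muscle.

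**Figure D1:**
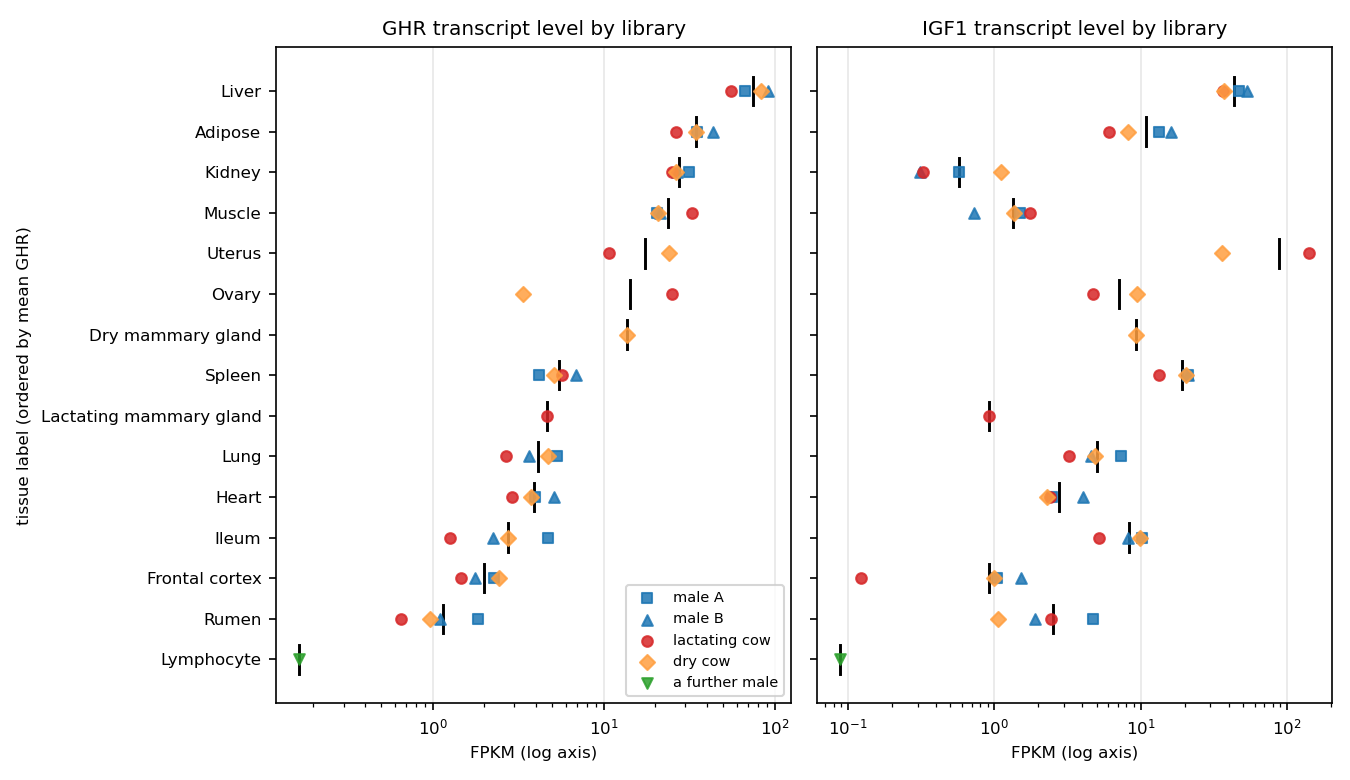
FPKM of GHR (left) and IGF1 (right) on log axes for each of the 47 libraries, by tissue label in the order of mean GHR. Symbols mark the animal and black bars the label mean. The 4 liver libraries lie above all others for GHR, whereas for IGF1 the 140.5 FPKM of the lactating cow's uterus lies above liver.

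By label mean, uterus (17.4 FPKM), ovary (14.2 FPKM) and the dry mammary gland (13.6 FPKM) lay between this tier and the tissues with little GHR. The lactating gland, at 4.64 FPKM, lay below the mean of spleen. The cows differed in ovary and uterus, and single libraries there reached the range of the tier above or of the tissues with little GHR. The ovary held 25.1 FPKM of GHR in the lactating cow and 3.37 FPKM in the dry cow. The uterus held 10.8 FPKM in the lactating cow and 24.1 FPKM in the dry cow. GHR was thus higher in the lactating cow's ovary and lower in its uterus. GHR was called higher in uterus than in the mean of the other labels (1.07 ± 0.33, limma adjusted p = 0.00730), where 11.2% of genes were. Without the dry cow the difference was 0.49 and not called, and without the lactating cow it was 1.61. It also fell short of the 2-fold minimum once lymphocytes were left out, at 0.85 without and 0.93 with the animal as a replicate block, and under each of the 3 other scalings (0.75 to 0.995). The ovary was not called (0.33 ± 0.33, limma adjusted p = 0.421), and its value turned from 1.73 without the dry cow to -1.11 without the lactating cow.

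GHR was low in the remaining tissues. The means were 5.47 ± 1.11 FPKM in spleen, 4.11 ± 1.17 in lung, 3.92 ± 0.918 in heart, 2.74 ± 1.44 in ileum, 1.98 ± 0.452 in frontal cortex and 1.14 ± 0.506 in rumen (SD, n = 4 each). The lymphocyte library held 0.166 FPKM, the lowest of the 47. Liver thus had 65.0 times the mean FPKM of rumen. GHR was called lower in ileum (-1.38 ± 0.24), frontal cortex (-1.65 ± 0.24) and rumen (-2.18 ± 0.24), with limma adjusted p of 4.98e-06, 1.12e-07 and 6.05e-10, where 2.10%, 13.1% and 11.7% of genes were called lower. Lung (-0.84 ± 0.24) and heart (-0.89 ± 0.24) were lower at limma adjusted p of 0.00238 and 0.00110 but did not reach the 2-fold minimum. Both reached it once lymphocytes were left out (-1.07 in lung and -1.11 in heart), also with animal as a block (-1.10 and -1.15). Spleen stood at -0.46 ± 0.24 (limma adjusted p = 0.0800). In all, 5 of 12 labels with at least 2 libraries were called higher and 3 lower.

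Set against each label in turn, liver had more GHR than all 14, of which both mammary glands and the lymphocytes are 1 library each, taken to vary like the other labels. The smallest difference was that from adipose tissue, 1.07 ± 0.32 on the log2 scale (limma adjusted p = 0.00338), or 2.13 times in mean FPKM, which was not called with equal FPKM sums or among libraries with traces, and that from kidney was 1.38 ± 0.32 (limma adjusted p = 2.24e-04). Over all genes and the 14 labels, 11.2% of these comparisons were called higher in liver. Further down the order of label means, neighbours were not told apart. Of the 14 pairs of neighbours, only liver and adipose tissue passed an adjusted p of 0.05. Among all genes 66.8% differed between liver and adipose tissue, and over the 14 pairs together 59.2%. The pairs were set by the order of GHR itself, which keeps gaps small for GHR but not for other genes. The share over all genes is therefore no like measure for the count of GHR. The spread in this fit is shared by all labels and includes the unlike ovaries. Without the lactating cow 6 of the 12 pairs left passed, and with quantile normalization 7 of 14.

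IGF1 had its highest mean in uterus, then liver, then spleen. The uterus of the lactating cow held 140.5 FPKM, the highest IGF1 value of the 47 libraries, and that of the dry cow held 35.8 FPKM. In liver IGF1 stood at 46.6 and 53.0 FPKM in males A and B, 36.3 in the lactating cow and 37.3 in the dry cow, a mean of 43.3 ± 7.96 (SD, n = 4). The lower uterus value lay just under the liver range and the higher one far above it. Outside liver, 42 of 43 libraries were below the lowest liver library. IGF1 thus missed the full separation, which 2.59% of genes showed, and no share over all genes was computed for this count. In spleen, the blood-filtering lymphoid organ, 3 libraries stood at 20.5, 21.1 and 21.1 FPKM and that of the lactating cow at 13.4. All 4 spleen values were below liver and above the highest value of ileum. The lowest of them lay within the range of adipose tissue, 6.09 to 16.2 FPKM.

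IGF1 was called higher in liver than in the mean of the other 14 labels. On the log2(FPKM + 1) scale it averaged 5.45 in liver and 2.39 over the other labels, a difference of 3.07 ± 0.25 (SE, limma adjusted p = 1.61e-13). Of all genes, 8.28% were called higher in liver. Uterus (3.84 ± 0.34, limma adjusted p = 1.77e-11) and spleen (1.83 ± 0.25, limma adjusted p = 5.05e-08) were also called higher, as were 11.2% and 15.7% of all genes there. The uterus difference rests on 2 libraries and was 2.65 without the lactating cow and 4.91 without the dry cow, called in both cases. Set against single labels, liver exceeded 13 of 14, beginning with spleen (1.15 ± 0.33, limma adjusted p = 0.00194), which was also a pair of neighbours in which 74.5% of all genes passed. Among libraries with traces spleen was not called. Over all genes and the 14 labels, 11.2% of comparisons with a single label were called higher in liver. Uterus minus liver was 0.72 ± 0.40 (SE, limma adjusted p = 0.114), so the leading labels could not be separated. Among all genes 66.5% passed between uterus and liver.

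A middle group followed, with adipose tissue at 10.9 ± 4.63 FPKM, ileum at 8.38 ± 2.30 and lung at 5.02 ± 1.73 (SD, n = 4 each). The ovary of the lactating cow held 4.71 FPKM and that of the dry cow 9.48. Against the other labels adipose tissue stood at 0.97 ± 0.25 (limma adjusted p = 0.00119) and ileum at 0.64 ± 0.25 (limma adjusted p = 0.0218), both short of the 2-fold minimum. Adipose tissue passed that minimum without the lactating cow (1.04) and without the dry cow (1.08). Lung (-0.049 ± 0.25) and ovary (0.39 ± 0.34) had limma adjusted p of 0.871 and 0.355. Of the 14 pairs of neighbours, liver and spleen passed, as did spleen and adipose tissue (0.81 ± 0.33, limma adjusted p = 0.0331), where 59.4% of all genes passed, against 55.5% over the 14 pairs together. Here too the pairs were set by the order of IGF1 itself, so the shares over all genes are no like measure. Without male A only 1 pair passed.

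IGF1 was scarce in heart, rumen, muscle, frontal cortex and kidney. The means were 2.79 ± 0.826 FPKM in heart, 2.53 ± 1.58 in rumen and 1.34 ± 0.439 in muscle (SD, n = 4 each). In kidney the 2 males held 0.569 and 0.309 FPKM, the lactating cow 0.326 and the dry cow 1.11. In frontal cortex 3 libraries stood at 0.995, 1.04 and 1.53 FPKM and that of the lactating cow at 0.123. The lymphocyte library had 0.0882 FPKM. IGF1 was called lower in kidney (-2.10 ± 0.25), frontal cortex (-1.83 ± 0.25) and muscle (-1.48 ± 0.25), with limma adjusted p of 2.39e-09, 2.88e-08 and 1.30e-06, where 8.42%, 13.1% and 38.8% of all genes were called lower. In muscle the difference was -0.52 after quantile normalization and -0.79 after scaling by the median ratio, under the 2-fold minimum. Rumen (-0.94 ± 0.25) and heart (-0.74 ± 0.25) were lower at limma adjusted p of 0.00115 and 0.00689, also under it, and rumen passed it without male A (-1.17) and once lymphocytes were left out (-1.13, or -1.19 with animal as a block).

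The receptor and the growth factor did not follow the same order of tissues. In kidney GHR exceeded IGF1 most, and the ratio of IGF1 to GHR was 0.0211 ± 0.0142 (SD, n = 4). In muscle it was 0.0566 ± 0.0170 and in adipose tissue 0.305 ± 0.0819. In liver, where both were high, it was 0.595 ± 0.110. Spleen (3.61 ± 1.15), ileum (3.39 ± 0.847), rumen (2.27 ± 1.13) and lung (1.21 ± 0.143) held more IGF1 than GHR in each of their libraries. In uterus the ratio was 13.0 in the lactating cow and 1.49 in the dry cow, and in ovary 0.188 in the lactating cow and 2.82 in the dry cow. The order of the cows was thus opposite in the 2 organs. IGF1 exceeded GHR in 19 of the 47 libraries. The ratio is taken within a library and does not depend on how libraries are scaled to each other. It does depend on the transcript lengths used for the 2 genes, which are not given.

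**Figure D2:**
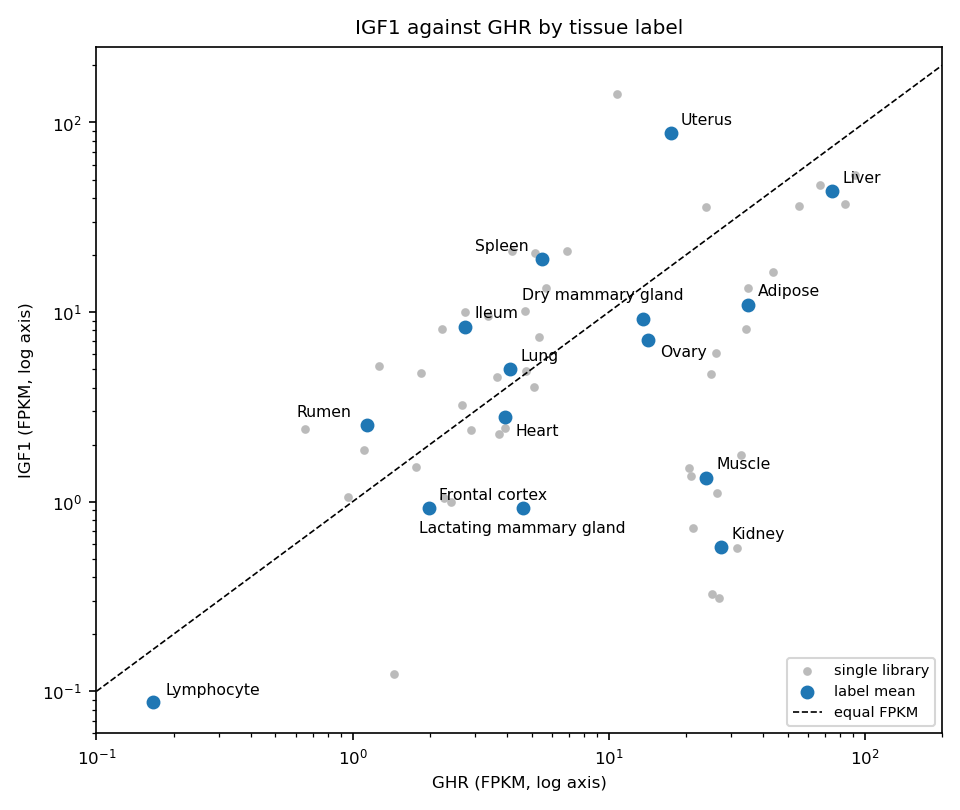
IGF1 against GHR in FPKM on log axes, with blue points for the 15 label means, grey points for single libraries and a dashed line where both are equal. Kidney and muscle lie far below the line, and spleen, ileum, rumen, lung and uterus above it.

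Across the 15 label means on the log2(FPKM + 1) scale, GHR and IGF1 correlated at Pearson's r = 0.51 and Spearman's rho = 0.49, and over the 14 labels without liver at r = 0.36 and rho = 0.39. These are descriptions, since the labels share animals. Over the 15 labels with liver, 96.8% of the tested genes were less like GHR than IGF1 was, which stood at rank 534. No such share was computed without liver. The genes whose label means were most like GHR were ENSBTAG00000045633 (r = 0.82 over 15 labels), which was highest in adipose tissue at 25.0 FPKM and had 11.1 FPKM in liver, and ENSBTAG00000012377 (r = 0.80), which had 62.5 FPKM in liver and 56.3 in kidney. Those most like IGF1 were ENSBTAG00000011324 (r = 0.87), with 295.9 FPKM in uterus and 106.9 in liver, and ENSBTAG00000008612 (r = 0.87), with 1480 FPKM in liver and 174.5 in uterus. No gene reached r = 0.9 with either. The files used here give no names for these 4 identifiers.

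Neither gene was restricted to a single tissue. GHR had a mean of at least 1 FPKM in 14 of 15 labels and IGF1 in 11, and both were above 0 in all 47 libraries. Liver held 32.3% of the summed label means of GHR and 21.6% of those of IGF1, for which uterus held 44.0%. The tissue specificity index tau, which is 0 for an even gene and 1 for a gene of a single label, was 0.535 for GHR and 0.622 for IGF1, against a median of 0.448 over all genes tested. In the 40 libraries of the 10 tissues sampled in all 4 animals, tissue took 97.4% of the variance of GHR and the animal 0.683%. For IGF1 these were 94.5% and 1.81%, and the medians over all genes were 93.3% and 1.01%. Within tissues, deviations of the 2 genes from the tissue mean correlated at r = 0.62 (rho = 0.60) over the 40 libraries, which share animals and library scaling.

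The lactating gland was set beside the dry gland to describe both genes in milk production. GHR stood at 4.64 FPKM in the lactating gland and 13.6 FPKM in the dry gland. IGF1 stood at 0.925 FPKM in the lactating gland and 9.24 FPKM in the dry gland. The lactating value of GHR was 0.342 times and that of IGF1 0.10 times the dry one, with differences of -1.37 for GHR and -2.41 for IGF1 in log2(FPKM + 1). There was 1 library of each gland, so the differences have no replicate check and are given without a test, and stage and cow cannot be told apart. Of 13002 genes with at least 1 FPKM in either gland, 76.8% were lower by at least 1 in the lactating gland and 1.90% were higher, and the median of all genes was -1.50. In the lactating library 10 genes held 75.6% of the summed FPKM, against 8.08% in the dry library.

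Relative to the median of all genes, GHR was 0.13 higher in the lactating gland, and 86.0% of genes differed as much or more. IGF1 was 0.91 lower, and 24.9% of genes differed as much or more. GHR was also higher after quantile normalization (0.37) and after scaling by the median ratio (0.34), while IGF1 remained lower in both (-0.96 and -1.12). Ranks within a library do not depend on scaling. GHR lay above 65.0% of the genes detected in the lactating gland and above 61.7% of those detected in the dry gland. IGF1 lay above 33.0% in the lactating gland and above 53.0% in the dry gland. The lower GHR of the lactating gland thus depended on the scaling, while IGF1 was lower on every scale tried.

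**Figure D3:**
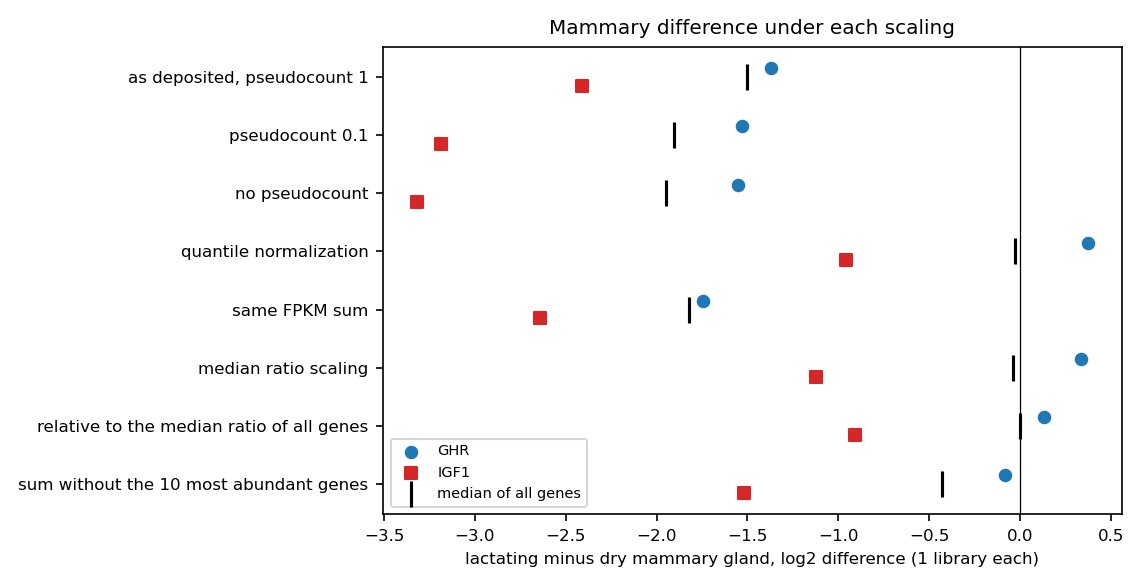
Difference between the lactating and the dry mammary gland in log2 units for GHR (circles), IGF1 (squares) and the median of all genes (bars), as deposited and under 7 other settings, with 1 library of each gland. IGF1 lies left of 0 throughout, whereas GHR lies right of 0 in 3 settings.

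The same cows were compared in the 12 other tissues they share, to show how far they differ outside the gland. The lactating cow had less GHR than the dry cow in 9 of 12 tissues and less IGF1 in 8 of 12. No share over all genes was computed for these counts, so they are not read as a trait of the 2 genes. In liver, GHR stood at 55.2 FPKM in the lactating cow and 83.6 FPKM in the dry cow, a difference of -0.59 in log2(FPKM + 1), and 12.1% of genes differed as much or more. IGF1 in liver was near equal, at 36.3 FPKM in the lactating cow and 37.3 FPKM in the dry cow. The largest difference of GHR was in ovary (2.58), where 7.80% of genes were higher by at least 1 and 2.45% differed as much or more. In uterus GHR was lower in the lactating cow by 1.09, as 4.98% of genes were lower by at least 1. The largest difference of IGF1 was the higher level in the lactating cow's uterus (1.94), where 3.69% of genes were higher by at least 1 and 1.38% differed as much or more. Relative to the median of all genes, IGF1 differed by -0.91 in the mammary gland, below each of the 12 other tissues, which ran from -0.81 to 1.92. On that scale 24.9% of genes differed as much or more in the gland, against 3.34% in frontal cortex, 6.31% in kidney and 6.64% in spleen. There are no replicates in these pairs. In 9 of the 12 tissues, all but liver, muscle and rumen, the lactating cow's library lacked traces and the dry cow's held them. Both mammary libraries held traces, and what this does to the differences was not tested.

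**Figure D4:**
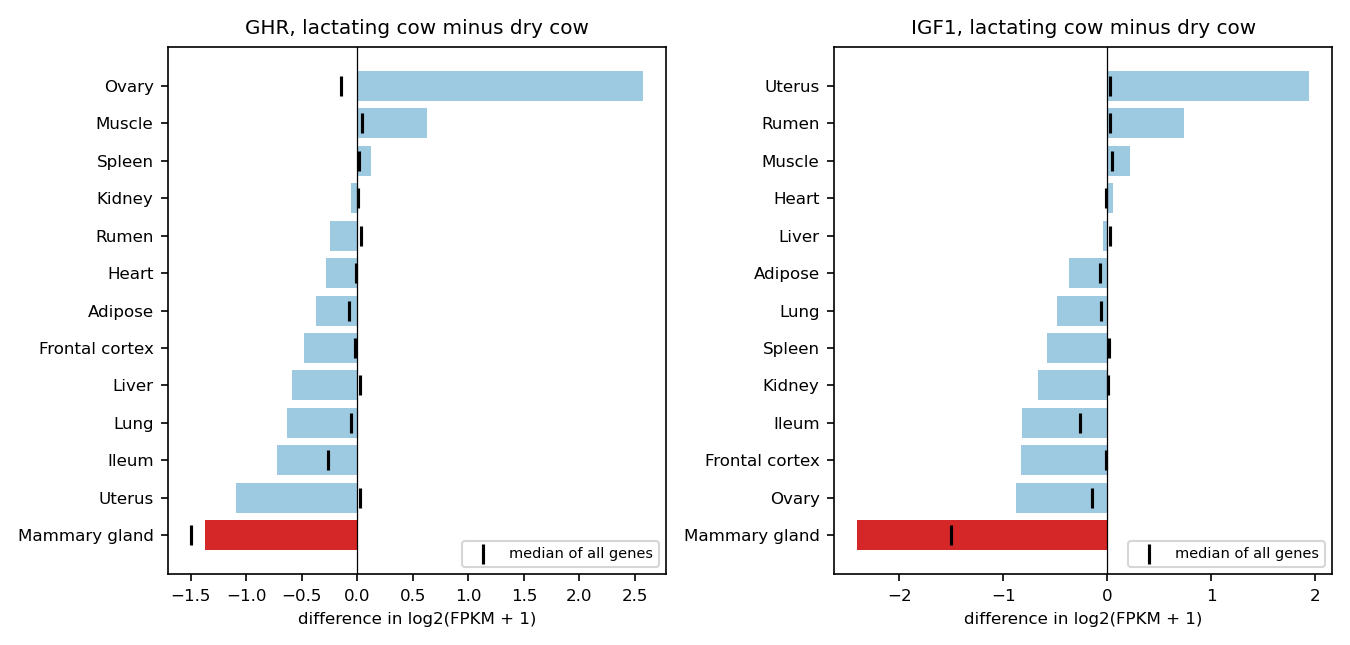
Lactating cow minus dry cow in log2(FPKM + 1) for GHR (left) and IGF1 (right) in 13 organs with 1 library per cow, with the mammary gland in red and the median of all genes as black ticks. GHR was higher in the lactating cow in ovary, muscle and spleen, and IGF1 in uterus, rumen, muscle and heart.

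Among the 4 animals, the lactating cow most often had the lowest GHR. It was lowest of 4 in 8 of 10 tissues, and its muscle was the exception in the other direction, with the highest value. Of all genes, 2.21% were lowest in this cow in at least 8 tissues. For IGF1 the cow was lowest in 6 of 10 tissues, as were 13.5% of genes. These counts were the same under the 3 other scalings. The libraries with few liver traces belong mostly to this cow. GHR was lowest in 6 of the 7 tissues where its library lacked traces and in 2 of the 3 where its library held them (liver and rumen), and IGF1 in 5 of 7 and in 1 of 3 (liver). The part of the libraries' making in these counts was not tested.

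Males and females were compared within the 10 tissues of all 4 animals. No difference passed the test, and most had the same sign. The difference of GHR was above 0 in 8 of 10 tissues, between 0.053 (frontal cortex) and 0.56 (ileum) on the log2 scale, and IGF1 in 8 of 10, between 0.30 (ileum) and 0.96 (adipose tissue). The tissues share the same 4 animals, and no share over all genes was computed for these counts of signs. When each animal was left out they were 7 or 8 for GHR and 7 to 9 for IGF1, with 7 for both without the lactating cow. By limma, 0 of 10 tissues were called for GHR, with 0 at an unadjusted p under 0.05, and 0 of 10 for IGF1, with 1 at an unadjusted p under 0.05. The SE of a tissue's difference was 0.30 for GHR and 0.35 for IGF1. Over all genes and tissues, 4.52% of the differences were called. Males lay above females without overlap in 4 tissues for GHR and in 5 for IGF1, and over all genes and tissues this held in 27.0% of cases.

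IGF1 in adipose tissue had the largest difference between sexes. It stood at 13.3 and 16.2 FPKM in the males and at 6.09 and 8.18 FPKM in the lactating and the dry cow, without overlap. The difference was 0.96 ± 0.35 (SE), with a limma adjusted p of 0.0750, while 5.13% of all genes were called higher in males there. It passed after quantile normalization (1.08, limma adjusted p = 0.0188) and after scaling by the median ratio (1.05, limma adjusted p = 0.0371). It did not pass with equal FPKM sums (1.05, limma adjusted p = 0.0688) or without any 1 of the 4 animals, where the limma adjusted p ran from 0.0911 to 0.329. In liver IGF1 was also without overlap, at 46.6 and 53.0 FPKM in the males and 36.3 and 37.3 FPKM in the females, with a difference of 0.42 ± 0.35 (limma adjusted p = 0.786). Liver GHR differed by 0.20 ± 0.30 (limma adjusted p = 0.978) with overlap. In muscle the sign was opposite for both genes, with differences of -0.31 ± 0.30 for GHR and -0.30 ± 0.35 for IGF1 (limma adjusted p of 1 for each). The GHR difference there was 0.0049 without the lactating cow, whose muscle had the highest value. GHR in spleen (-0.00081) and IGF1 in kidney (-0.22) were also below 0. Averaged over the 10 tissues, males exceeded females by 0.21 for GHR and 0.35 for IGF1. An exact permutation test over the 4 animals, two-sided, gave p = 0.333 for each, the smallest this design allows. Without the lactating cow the mean differences were 0.075 and 0.21.

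**Figure D5:**
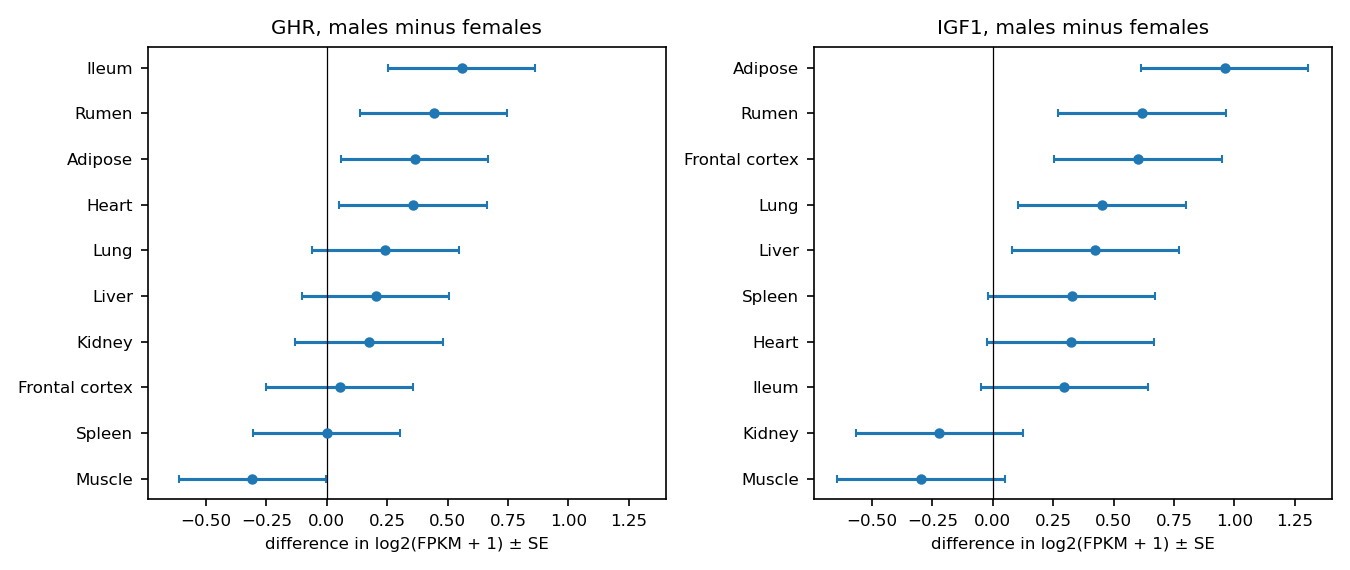
Males minus females in log2(FPKM + 1), with the SE from the limma fit, for GHR (left) and IGF1 (right) in 10 tissues with 2 animals of each sex. The points of both genes lie right of 0 in 8 tissues, and the largest is IGF1 in adipose tissue at 0.96.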

How the data were processed

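Total RNA was sequenced as paired reads after TruSeq library preparation, per the labels' protocols. The authors deposited FPKM for 24616 Ensembl gene identifiers in 51 columns. Of these, 47 matched a sample by name and 4 matched none and were not used. The assembly UMD3.1 and the tools Cufflinks, STAR and Trimmomatic 0.39 are listed, per the submitters' processing notes, without settings or annotation. The members and lists were chosen with earlier results of these data known.

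FPKM values were taken as log2(FPKM + 1) and entered a linear model (limma 3.58.1, R 4.3.3) whose gene variances were shrunk towards a trend on mean level. P-values were adjusted by Benjamini-Hochberg over all genes tested. A gene was tested if 2 or more of the 47 libraries reached 1 FPKM, which held for 16634 genes. In the 40 libraries used for sex 16503 genes did so. The fits were tested on simulated data with independent libraries and no effect of the animal, so this did not check libraries that share animals. Each animal gave 1 library per tissue. The p-values measure the spread between libraries within a label, or within a sex of a label, pooled over labels. These fits took libraries as independent, though the 47 come from 5 animals. Libraries of the same animal share its number in the labels, and their deviations correlated at a median of 0.182 over 180 pairs from different tissues. Over 540 pairs from different animals and different tissues the median was -0.063. The animal as a block was an alternative, together with other scalings, pseudocounts and filters. Trace genes had at least 2000 FPKM in their tissue and at least 100 times every other label, and a library was taken to hold traces where liver or rumen genes reached 50 ppm of that level. The genes described were the 2 members and the 2 identifiers most like each. A list of further growth axis genes and tissue markers, set by symbol, was not analysed here because the identifiers could not be paired with symbols. Tables and plots were made in Python 3.11.15 (pandas 2.3.3, numpy 2.4.6, matplotlib 3.10.9).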

Additional observations from a re-analysis of the deposited data

Results flagged for a closer look

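Within the 10 tissues with 4 libraries, 3 of 20 combinations of gene and tissue had a library whose gap to the nearest of the others, as a share of the whole range, passed Dixon's critical value for 4 samples. By chance about 1 in 20 would if values were normal and the combinations independent, but these share the same 4 animals. The share over all genes was not computed, so the 3 are not read as an excess. GHR in the muscle of the lactating cow was 32.8 FPKM, above the 20.6 to 21.3 FPKM of the other 3. IGF1 in the heart of male B was 4.02 FPKM, above 2.27 to 2.46. IGF1 in the spleen of the lactating cow was 13.4 FPKM, below 20.5 to 21.1. No explanation was weighed for these values.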

How the results depend on the processing

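The higher level of both genes in liver held in all 28 alternative values, counted over the 2 genes together. It ranged from 3.08 to 4.05 for GHR and from 2.84 to 3.84 for IGF1, and from 3.23 to 3.43 and from 2.98 to 3.16 when each animal was left out. The median difference of all genes was -0.60 as deposited and -0.24 after quantile normalization. With the animal as a replicate block and without the lymphocyte library the liver differences were 3.08 and 2.84, against 3.12 and 2.89 without the block.

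Of 304 alternative values for the other labels, 270 kept their call. For IGF1 in adipose tissue a call was gained with a pseudocount of 0.1 (1.44), with equal FPKM sums (1.17), in the 10 tissues alone (1.07) and without the lactating cow's uterus (1.04), an alternative added after seeing the data. Without each animal it ran from 0.77 to 1.08. For IGF1 in ileum one was gained with a pseudocount of 0.1 (1.09), and in heart with equal sums (-1.01). GHR in heart was called with equal sums (-1.19), with the replicate block (-1.15), in the same libraries without it (-1.11) and in the 10 tissues alone (-1.08). GHR in lung was called with quantile normalization (-1.44), median ratio scaling (-1.30), the block (-1.10), without it (-1.07) and in the 10 tissues alone (-1.03). IGF1 in rumen was called with equal sums (-1.09), the block (-1.19; -1.13 without it) and only libraries with traces (-1.17), and ran from -1.17 to -0.69 without each animal. Calls were lost for IGF1 in muscle with quantile normalization (-0.52) and median ratio scaling (-0.79). For GHR in uterus they were lost with quantile normalization (0.94), equal sums (0.995), median ratio scaling (0.75) and the block (0.93; 0.85 without it), and the value ran from 0.49 to 1.61 without each animal. GHR in ovary turned to -1.28 in libraries with traces, which include the dry cow's ovary only, and ran from -1.11 to 1.73 without each animal. Causes were not tested beyond the libraries left out.

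Liver exceeded 9 of 9 labels for GHR in the fit of 10 tissues, 13 of 14 with equal sums and 12 of 13 among libraries with traces, adipose tissue being lost in both. For IGF1 it exceeded 11 of 13 among libraries with traces, where spleen was lost. Of the neighbour pairs of GHR, 2 of 14 passed with a pseudocount of 0.1 and with equal sums, 2 of 7 in the 10 tissues, 5 of 13 with traces, 7 of 14 with quantile normalization or median ratio scaling, and 1 to 6 without each animal (12 pairs left without either cow, 14 without either male). For IGF1, 1 of 14 passed with median ratio scaling and 1 to 3 without each animal. Of 200 alternatives for sex, the 2 for IGF1 in adipose tissue gained a call (1.08 with quantile normalization and 1.05 with median ratio scaling).

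In the mammary gland GHR was -1.53 with a pseudocount of 0.1, -1.55 with none, -1.74 with equal sums and -0.084 with sums that leave out the 10 most abundant genes. It turned to 0.37 (quantile), 0.34 (median ratio) and 0.13 (relative to the median). IGF1 was -3.19, -3.32, -2.64 and -1.52 in the first 4 and -0.96, -1.12 and -0.91 in the last 3. Depth is unknown, so the counting error of values under 1 FPKM could not be given.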
